A study of Mus musculus with 9 samples.

Results

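The genes described here act in DNA replication, DNA repair and the cell cycle, and were chosen by symbol from a table of transcript levels in mouse liver. A gene was taken where its symbol began with Orc, Mcm, Rfc, Rpa, Prim, Ccn, Cdk, Cdc, Rad, Xrcc, Ercc or Msh and went on with a family number or letter, or with Pola, Pold, Pole or Polk and a digit. Symbols beginning with Cdc42 were left out, since Cdc42 is a small GTPase of the cytoskeleton, and the mean over the 9 libraries had to reach 1 TPM, a unit that divides a gene's reads by its transcript length and by the total of its library. Of 5608 listed genes, 55 carried such a symbol and 51 met the limit. Just inside it were Ccnd2 (mean 1.01 TPM) and Ccnj (1.16 TPM), and just outside were Ccnb2 (0.393 TPM), Cdk5rap2 (0.361 TPM), Ccna2 (0.231 TPM) and Cdk5r1 (0.181 TPM). The rule used no comparison between diets.

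The livers came from C57BL/6 J mice of genotype wt in a short dietary experiment. The groups differed in their food, and IF and FMD mice were also given hydrogel as a source of water. FED mice (n = 3) ate standard diet freely. IF mice (n = 3) were intermittently fasted, with 2 fasts of 24 h and free feeding in between. FMD mice (n = 3) were given a fasting-mimicking diet for 3 days, a commercial food rationed below their average calorie intake. The replicates were separate mice, which carry the numbers 1 to 3 in FED, likewise in IF, while FMD has 1, 2 and 4, and their age and sex were not given in the sources used here. Whole liver tissue was sequenced, so that a lower value can come from fewer cells of a type or from less RNA per cell, which cannot be told apart here.

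An origin of replication is marked by the origin recognition complex, on which the Mcm helicase is loaded before S phase, and DNA is then copied by polymerase alpha with its primase and by polymerases delta and epsilon, with the clamp loader RFC and the single-strand binding protein RPA. D-type cyclins with Cdk4 carry growth signals into the cell cycle by inactivating the retinoblastoma protein, which frees the E2F factors that switch on S-phase genes. Hepatocytes of an adult liver are mostly quiescent, whereas repair genes are used in resting cells as well.

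The libraries differed in level across the whole table, which bears on every value here. The listed genes summed to between 26.3% and 29.3% of a library's full TPM in FED, between 32.9% and 34.9% in IF and between 34.9% and 43.0% in FMD, with the highest share in FMD replicate 1. A scaling factor was taken for each library as its median ratio over genes to a geometric mean of all libraries, and was 0.815 to 0.844 in FED, 0.962 to 1.03 in IF, and 1.43, 1.14 and 1.09 in FMD replicates 1, 2 and 4. The median log2 fold change of all 4665 genes tested was accordingly 0.24 for IF and 0.48 for FMD against FED. Fold changes are on the TPM as deposited unless stated, and those on values divided by these factors, called scaled values, are set beside them. The depth of the libraries is unknown. FMD replicate 1 held the highest of the 9 values for 39 of the 51 genes as deposited (76.5%, against 65.8% of all genes), and for 10 on scaled values (19.6%, against 21.2%).

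All 51 genes were above 0 in every library, and their mean levels had a median of 7.37 TPM, beside 11.5 TPM for all genes tested. The mean was under 5 TPM for 20 genes, from 5 to under 20 TPM for 21 and 20 TPM or more for 10. The highest were Cdc34 (91.6 TPM), a ubiquitin-conjugating enzyme, Ccni (90.6 TPM), a cyclin-like protein, and Rad23b (87.7 TPM), which works in nucleotide excision repair. By role, 4 genes belonged to origins and the helicase, 8 to the replication fork, 5 to the cell cycle engine, 2 to the anaphase-promoting complex, 7 to strand break repair and its checkpoint, 5 to nucleotide excision repair and 2 to mismatch repair. Another 6 were cyclins and kinases of transcription, 6 were other cyclins, kinases and their partners, and 6 with other known functions were grouped apart. Such a function does not exclude a part in replication or the cell cycle.

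**Figure D1:**
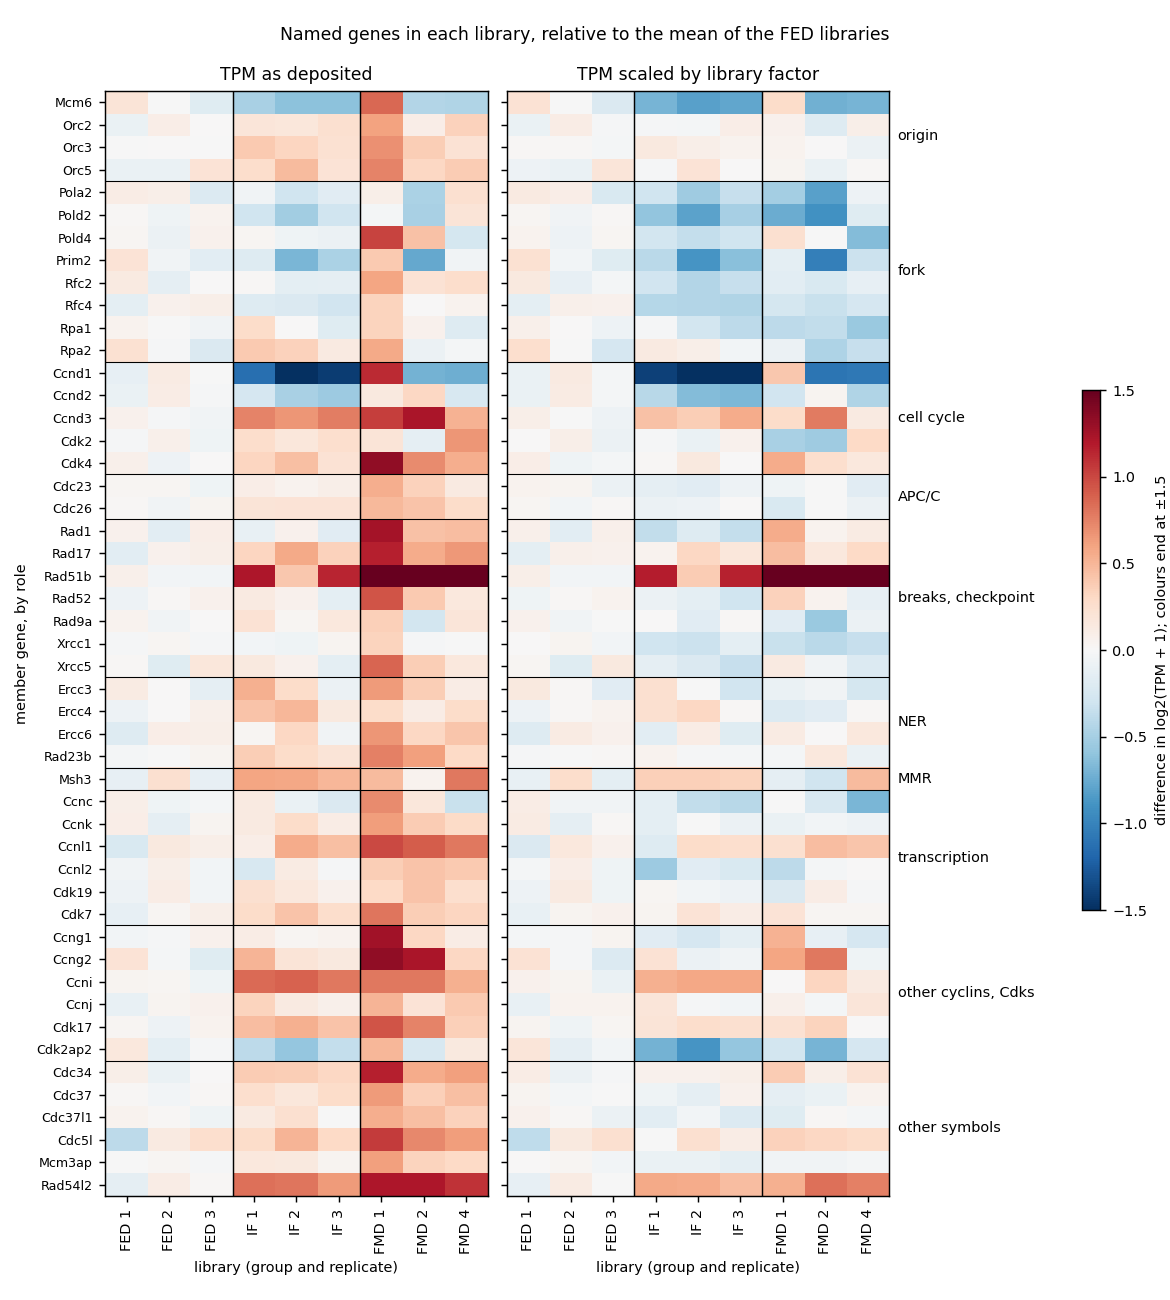
Each row is a gene named in the text, grouped by role, and each column a library; colour gives the difference in log2(TPM + 1) from the mean of the 3 FED libraries, as deposited (left) and scaled (right), with colours ending at ±1.5. As deposited, FMD replicate 1 is red for most genes, and on scaled values the 8 fork genes are mostly blue in IF and FMD while Rad51b is red in all 6 libraries of the diets.

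As a set the genes moved much as the rest of the table did, and a few passed the test. A gene passed the test where limma's Benjamini-Hochberg adjusted p, computed over all 4665 genes, was under 0.05 and the log2 fold change exceeded 0.585, a 1.5-fold change. Against FED, 5 of 51 genes passed in IF (9.8%), where 11.9% of all genes did. Of these, 4 were higher (Ccnd3, Ccni, Rad51b and Rad54l2), beside 10.3% of all genes, and Ccnd1 was lower, beside 1.59%. In FMD 13 of 51 passed (25.5%), where 37.1% of all genes did, and all 13 were higher, beside 35.5% higher and 1.59% lower among all genes. FMD was higher than IF for Rad1 and Rad51b, 2 of 51 (3.92%), beside 5.14% of all genes in either direction and 4.67% higher. Rad51b counts in both FMD comparisons, here and on scaled values, although it reached the 1 TPM limit only through FMD. Both diets were set against the same FED libraries, so the IF and FMD values are given side by side and are not independent.

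The median log2 fold change of the 51 genes was 0.17 in IF, 0.42 in FMD and 0.27 for FMD against IF, beside 0.24, 0.48 and 0.24 for all genes. On scaled values these medians were -0.05, -0.04 and 0.05. In IF 23 genes lay above and 7 below every FED library, where 60.6% of all genes had groups that did not overlap (53.8% higher, 6.77% lower). In FMD 32 lay above and 0 below, where the share was 70.7% (68% higher, 2.62% lower), and limma called 0 lower there at an unadjusted p under 0.05 as well as after adjustment. FMD against IF separated 25 genes upward and Ccni downward, where the share was 36.7% (33.6% higher, 3.04% lower).

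Scaling removed most of the calls. In IF 3 genes passed on scaled values, all lower (Ccnd1, Pold2 and Cdk2ap2), beside 7.14% of all genes (3.69% higher, 3.45% lower). In FMD Rad51b and Rad54l2 were higher and Pold2 lower, beside 11.1% of all genes (5.49% higher, 5.64% lower), and for FMD against IF only Rad51b passed, as higher, beside 2.23% (1.11% higher, 1.11% lower). Groups that did not overlap on scaled values were found in IF for 8 genes upward and 17 downward, beside 46.2% of all genes (23.2% higher, 23% lower). In FMD they were found for 8 upward and 8 downward, beside 36.7% (18.5% higher, 18.2% lower). For FMD against IF they were found for 9 upward and 4 downward, beside 26.3% (12.7% higher, 13.6% lower). Rad51b in FMD and Ccnd1 in IF passed both ways, as did Rad54l2 in FMD.

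**Figure D2:**
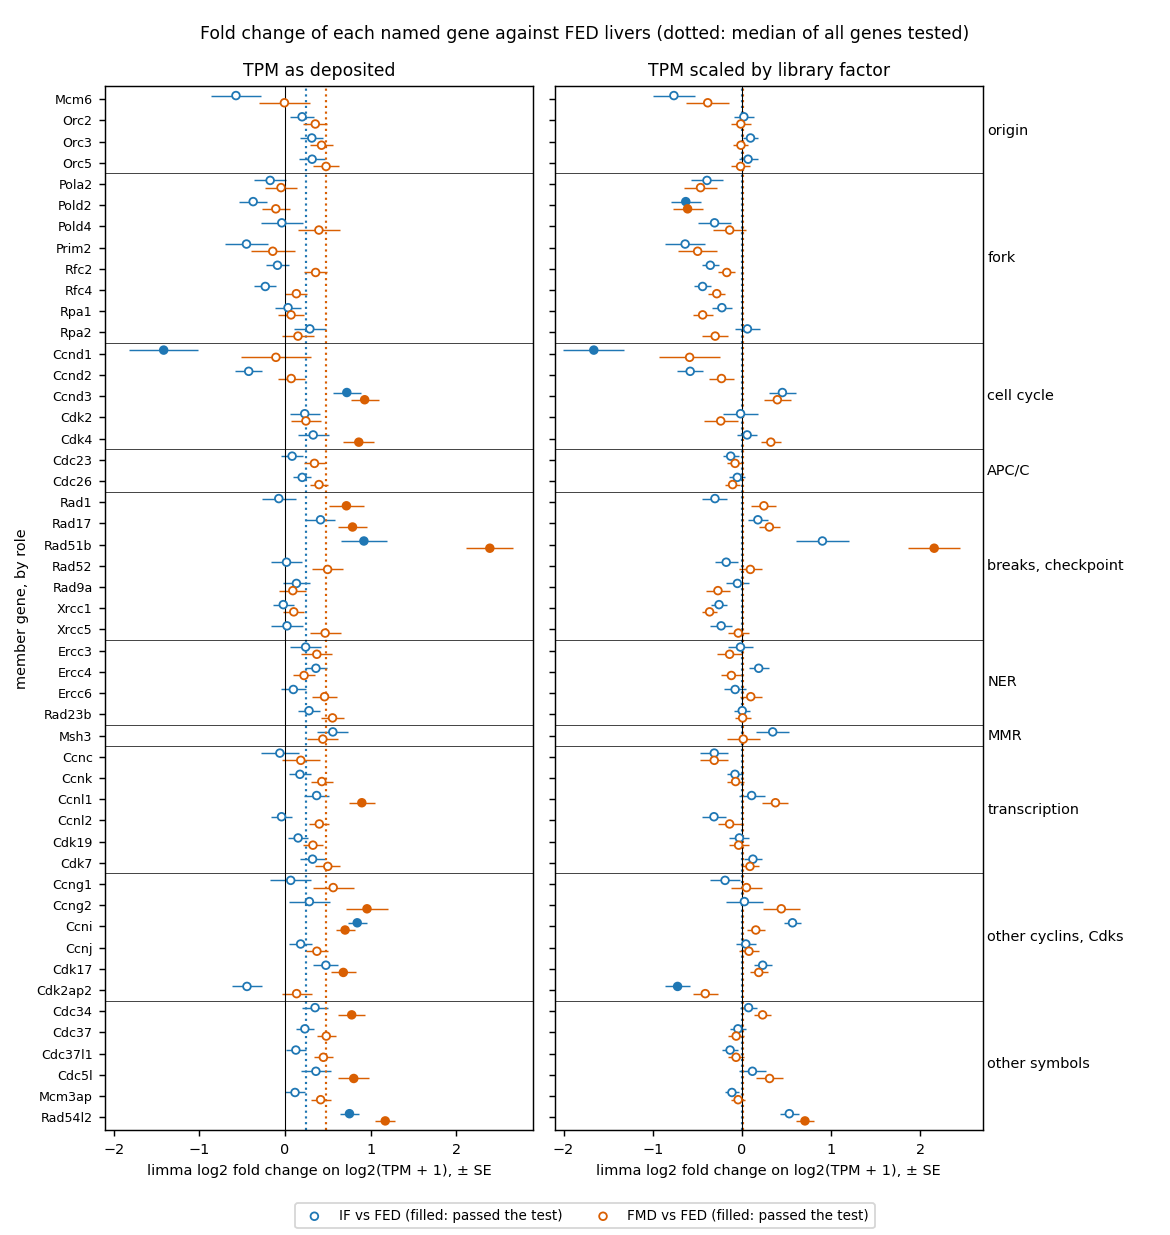
Points are limma log2 fold changes of each named gene on log2(TPM + 1) against FED, with standard errors, for IF (blue) and FMD (orange), as deposited (left) and scaled (right); filled points passed the test and dotted lines mark the median of all genes. As deposited, 5 blue points are filled, the filled orange points are led by Rad51b at 2.39 and Rad54l2 at 1.17, and most other points lie near the dotted lines at 0.24 and 0.48.

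**Figure D3:**
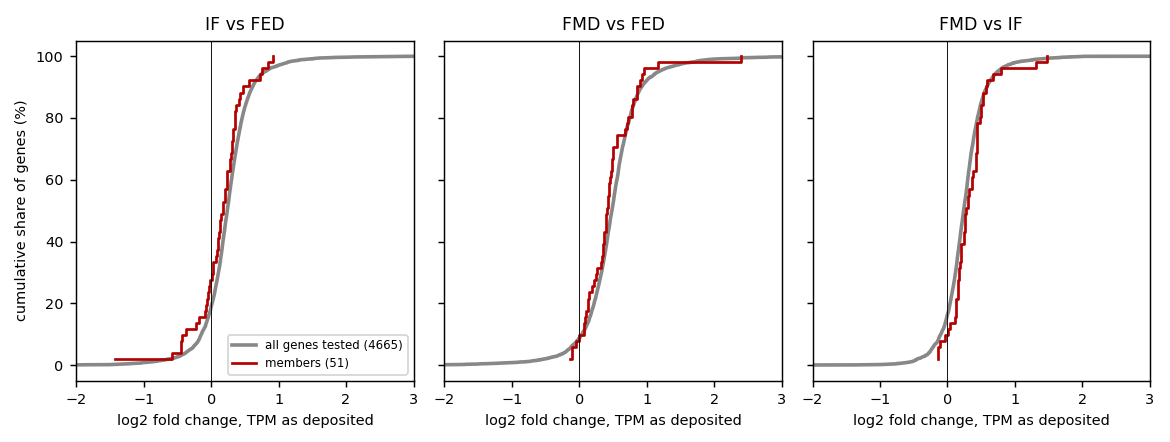
Curves give the cumulative share of genes, in percent, against the log2 fold change as deposited, for all 4665 genes tested (grey) and for the 51 genes described here (red), in the 3 comparisons. The red steps run near the grey curve, with Ccnd1 at -1.42 in IF and Rad51b at 2.39 in FMD as the outermost steps. Of the 51 genes, 20 lay above the median of all genes in IF, 17 in FMD and 31 for FMD against IF.

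Among the origin genes none of 4 passed the test in any comparison. Mcm6, a subunit of the hexameric helicase that unwinds DNA ahead of the fork, read 2.34, 1.90 and 1.57 TPM in FED, 1.08, 0.91 and 0.90 TPM in IF, and 4.30, 1.16 and 1.14 TPM in FMD. Every IF value and 2 of the 3 FMD values lay below every FED value, and FMD replicate 1 lay above all other libraries. The log2 fold change of Mcm6 in IF was -0.57 (SE 0.29, limma adjusted p = 0.17) as deposited and -0.76 (SE 0.24, adjusted p = 0.062) on scaled values. In FMD it was -0.01 (SE 0.29, adjusted p = 0.98), and without FMD replicate 1 it was -0.44 (SE 0.13, adjusted p = 0.016), short of the fold limit. The SE in IF also draws on all 9 libraries, FMD replicate 1 among them.

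The 3 subunits of the origin recognition complex had values above 0 in IF and FMD as deposited, and none passed the test. Orc3 read 3.07, 3.09 and 3.06 TPM in FED, 4.35, 4.08 and 3.76 TPM in IF, and 5.56, 4.26 and 3.75 TPM in FMD, so that both diets lay above FED without overlap. Its log2 fold changes as deposited were 0.31 (SE 0.13, adjusted p = 0.11) in IF and 0.43 (SE 0.13, adjusted p = 0.017) in FMD, and on scaled values they were 0.10 and -0.01. Orc2 and Orc5 had 0.20 and 0.32 in IF and 0.35 and 0.48 in FMD, and on scaled values 0.02 and 0.07 in IF and -0.01 and -0.02 in FMD.

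Promoters are shown for the genes of this set whose upstream sequence held a core E2F site, since E2F factors switch on replication genes, and for Rad51b, the gene with the highest fold change here. RefSeq sequences on build GRCm38.p6 were matched by gene ID for 39 of the 51 genes, and the 250 bases before the start site were searched on both strands for TTTCCCGC, TTTGGCGC, TTTGCCGC and TTTCGCGC (core E2F sites, which can overlap) and for CCAAT (the CCAAT box). A core E2F site was present in 4 of 39 genes (10.3%), Mcm6, Msh3, Orc3 and Cdk2, beside 2.16% of the 27025 genes with a promoter in the table. A CCAAT box was present in 21 of 39 (53.8%), beside 37.5% of all, and TTTGAA, the CHR element of late cell cycle genes, in 3 of 39 (7.69%), beside 18.3%. The 27025 genes were not limited to those measured in liver, unlike the 4665 behind the other shares. These shares therefore cannot be read as an enrichment. Each line reads 5′ to 3′ on the strand of the gene and ends at the base before the start site, with E2F and CCAAT matches in capitals (reverse complements included). For Mcm6, chr1:128359706-128359955 (minus strand), which holds 3 E2F matches, the first 2 overlapping, and 2 CCAAT matches; for Msh3, chr13:92355004-92355253 (minus strand), with 2 overlapping E2F matches; for Orc3, chr4:34614943-34615192 (minus strand), with 1 E2F match; for Cdk2, chr10:128705052-128705301 (minus strand), with 1 match of each kind; and for Rad51b, chr12:79297032-79297281 (plus strand), the first of 2 listed start sites, with 1 CCAAT match:
Mcm6: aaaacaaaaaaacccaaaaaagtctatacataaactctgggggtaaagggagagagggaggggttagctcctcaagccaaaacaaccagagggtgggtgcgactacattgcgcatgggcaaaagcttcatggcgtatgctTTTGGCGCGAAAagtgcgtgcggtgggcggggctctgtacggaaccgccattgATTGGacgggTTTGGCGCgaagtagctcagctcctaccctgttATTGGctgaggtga
Msh3: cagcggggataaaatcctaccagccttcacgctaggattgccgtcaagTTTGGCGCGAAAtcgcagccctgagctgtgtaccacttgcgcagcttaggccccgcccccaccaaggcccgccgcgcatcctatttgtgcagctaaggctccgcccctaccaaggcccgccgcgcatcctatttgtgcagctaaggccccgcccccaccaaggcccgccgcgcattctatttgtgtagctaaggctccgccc
Orc3: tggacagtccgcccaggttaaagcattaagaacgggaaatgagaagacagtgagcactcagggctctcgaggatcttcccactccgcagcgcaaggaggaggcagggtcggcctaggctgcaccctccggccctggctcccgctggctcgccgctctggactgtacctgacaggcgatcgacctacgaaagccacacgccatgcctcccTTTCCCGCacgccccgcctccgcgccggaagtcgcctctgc
Cdk2: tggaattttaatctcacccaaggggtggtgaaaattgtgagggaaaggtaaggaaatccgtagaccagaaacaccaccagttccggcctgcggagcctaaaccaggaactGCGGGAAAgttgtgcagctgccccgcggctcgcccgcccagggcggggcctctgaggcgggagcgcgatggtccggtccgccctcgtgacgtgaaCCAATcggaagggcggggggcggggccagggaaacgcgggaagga
Rad51b: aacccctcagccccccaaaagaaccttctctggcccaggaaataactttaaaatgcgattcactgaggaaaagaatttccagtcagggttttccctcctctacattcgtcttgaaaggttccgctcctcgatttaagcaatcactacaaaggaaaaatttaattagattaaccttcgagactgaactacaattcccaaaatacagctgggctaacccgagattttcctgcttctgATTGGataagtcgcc

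The 4 genes with an E2F match had fold changes of both signs in IF as deposited, and none passed the test. Mcm6 was lower in every IF library than in any FED library, whereas Msh3, Orc3 and Cdk2 were higher in every IF library. Cdk2, the kinase of S phase entry, read 6.34, 6.82 and 6.10 TPM in FED, 7.90, 7.34 and 7.85 TPM in IF, and 7.51, 5.77 and 10.73 TPM in FMD. Its log2 fold changes were 0.23 (SE 0.17, limma adjusted p = 0.34) in IF and 0.24 (SE 0.17, adjusted p = 0.23) in FMD, and -0.02 and -0.24 on scaled values. A match is a run of letters and does not show that a factor bound there.

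The 8 fork genes ran below the rest of the table. Their median log2 fold change was -0.13 in IF and 0.10 in FMD as deposited, beside 0.24 and 0.48 for all genes, and -0.37 in both on scaled values, beside 0.00 and 0.01. On scaled values 6 of 8 in IF and 4 of 8 in FMD lay below every FED library, where 23% and 18.2% of all genes did. As deposited, 3 of 8 lay lower in IF (6.77% of all genes) and 0 of 8 in FMD (2.62%). Pold2 alone passed the test, on scaled values only. The 14 tested genes of the fork and of origin firing outside this set, described below, had medians of 0.21 in IF and 0.55 in FMD. On scaled values those medians were 0.01 and 0.05.

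Pold2, the second subunit of polymerase delta, read 10.62, 10.06 and 10.91 TPM in FED, 8.34, 7.03 and 8.40 TPM in IF, and 10.31, 7.23 and 12.13 TPM in FMD. All IF values were below FED, and the FMD values spread across both. Pold2 had a log2 fold change of -0.37 (SE 0.16, limma adjusted p = 0.12) in IF and -0.11 (SE 0.16, adjusted p = 0.56) in FMD as deposited, and -0.63 (SE 0.17, adjusted p = 0.033) and -0.61 (SE 0.17, adjusted p = 0.029) on scaled values. Its scaled TPM was 13, 12.3 and 12.9 in FED, 8.11, 6.89 and 8.73 in IF, and 7.22, 6.33 and 11.1 in FMD. The scaled call of Pold2 in IF was lost without any FED or IF library (-0.70 to -0.55, adjusted p up to 0.13), and that in FMD without any FED library or without FMD replicate 1 or 2 (-0.64 to -0.46, adjusted p up to 0.088).

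Prim2, the large subunit of the primase that lays down RNA primers, read 2.25, 1.73 and 1.54 TPM in FED, 1.47, 0.76 and 1.03 TPM in IF, and 2.7, 0.66 and 1.72 TPM in FMD. IF lay below FED and FMD covered the whole range. Its scaled log2 fold change was -0.64 (SE 0.22, limma adjusted p = 0.086) in IF and -0.50 (SE 0.22, adjusted p = 0.14) in FMD. The clamp loader subunits Rfc2 and Rfc4 changed by -0.36 (SE 0.09, adjusted p = 0.033) and -0.44 (SE 0.09, adjusted p = 0.014) in IF on scaled values, under the fold limit, and by -0.17 and -0.28 in FMD.

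Pola2, the regulatory subunit of polymerase alpha, had scaled log2 fold changes of -0.39 in IF and -0.47 in FMD, and Pold4, the smallest subunit of polymerase delta, -0.31 and -0.14. Of the single-strand binding protein, Rpa1 was at -0.23 in IF and -0.44 (SE 0.11, limma adjusted p = 0.02) in FMD, while Rpa2 was at 0.06 and -0.30. Rpa2 was thus the only fork gene above 0 in IF on scaled values.

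The D-type cyclins, which bind Cdk4 at the start of the cycle, moved in different directions. Ccnd1 read 5.70, 6.93 and 6.25 TPM in FED, 2.31, 1.25 and 1.71 TPM in IF, and 14.85, 3.44 and 3.38 TPM in FMD. Every IF value lay below every FED value, and in FMD replicates 2 and 4 were below FED while replicate 1 exceeded all other libraries. For Ccnd1 in IF the log2 fold change was -1.42 (SE 0.40, limma adjusted p = 0.028) as deposited and -1.66 (SE 0.34, adjusted p = 0.012) on scaled values. Left out in turn, each of the 6 FED and IF libraries ended the call as deposited, with log2 fold changes from -1.56 to -1.28 and an adjusted p of up to 0.105. Leaving out an FMD library did not end it. The SE of 0.40 draws on the spread of all 9 libraries, so the high value of FMD replicate 1 widens it. On scaled values only leaving out IF replicate 2 ended the call (-1.52, adjusted p = 0.058).

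In FMD the value of Ccnd1 hung on FMD replicate 1. Its log2 fold change against FED was -0.11 (SE 0.40, limma adjusted p = 0.82) with all libraries and -0.72 (SE 0.16, adjusted p = 0.0036) without that replicate, which passed the test as lower. Without it, FMD exceeded IF by 0.70 (SE 0.16, adjusted p = 0.033), where all libraries gave 1.31 (SE 0.40, adjusted p = 0.068). The macrophage marker Cd68 was also highest in FMD replicate 1, at 64.02 TPM, against 12.16 and 5.75 TPM in FMD replicates 2 and 4, between 6.35 and 10.35 TPM in FED and between 3.14 and 5.99 TPM in IF. Cd68 was the only listed gene among 13 macrophage markers, and its part in the Ccnd1 value was not tested.

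Ccnd3, the D cyclin with the highest level here, moved the other way. It read 20.56, 19.31 and 18.88 TPM in FED, 33.43, 31.47 and 33.88 TPM in IF, and 41.37, 47.07 and 28.53 TPM in FMD, with every value of both diets above FED. Ccnd3 had a log2 fold change of 0.72 (SE 0.16, limma adjusted p = 0.011) in IF and 0.93 (SE 0.16, adjusted p = 0.0013) in FMD, and no library left out ended either call. On scaled values it was 0.45 (SE 0.15, adjusted p = 0.074) and 0.40 (SE 0.15, adjusted p = 0.088), with both groups still above FED without overlap.

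Ccnd2 was low throughout, at 1.0, 1.31 and 1.12 TPM in FED, 0.80, 0.53 and 0.47 TPM in IF, and 1.36, 1.66 and 0.81 TPM in FMD. IF lay below FED, with a log2 fold change of -0.42 (SE 0.16, limma adjusted p = 0.076) as deposited and -0.58 (SE 0.14, adjusted p = 0.026) on scaled values, just short of the fold limit. As a share of the summed TPM of the 3 D cyclins, which no library factor changes, Ccnd1 made up 23.3% ± 2.17 (SD, n = 3) in FED, 4.94% ± 1.29 in IF and 14.2% ± 10.2 in FMD. In FMD the shares were 25.8%, 6.59% and 10.3% in replicates 1, 2 and 4. The sum itself was 27.0 ± 0.682 TPM in FED, 35.3 ± 1.78 TPM in IF and 47.5 ± 13.1 TPM in FMD.

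**Figure D4:**
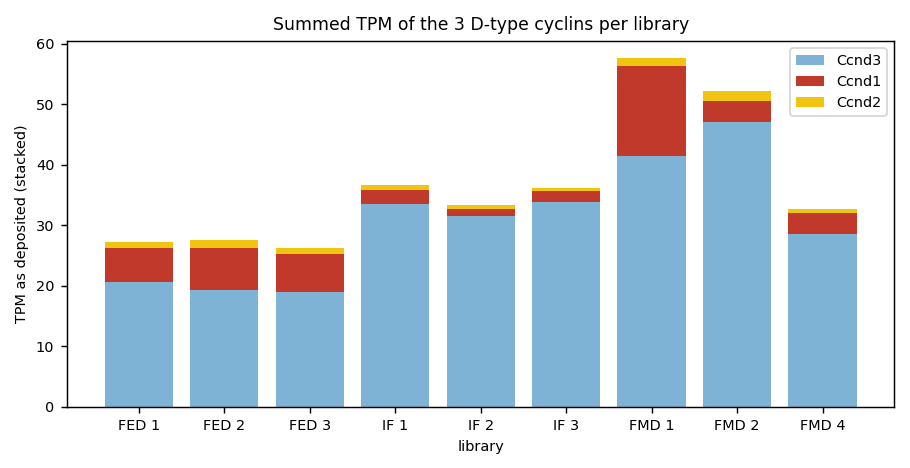
Bars stack the TPM as deposited of Ccnd3 (light blue), Ccnd1 (red) and Ccnd2 (yellow) in each of the 9 libraries. Ccnd1 takes 20.9% to 25.2% of the bar in the FED libraries and 3.76% to 6.32% in the IF libraries, and in FMD it takes 25.8% of the bar in replicate 1 and 6.59% and 10.3% in replicates 2 and 4.

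Cdk4, the partner kinase of these cyclins, read 26.56, 23.80 and 25.20 TPM in FED, 31.79, 34.65 and 29.32 TPM in IF, and 64.73, 41.63 and 37.30 TPM in FMD, so that the 3 groups did not overlap. It rose in FMD by 0.86 on the log2 scale (SE 0.18, limma adjusted p = 0.0029), and its scaled value was 0.32 (SE 0.11, adjusted p = 0.071). In IF the log2 fold change of Cdk4 was 0.33 (SE 0.18, adjusted p = 0.2). The listed subunits of the anaphase-promoting complex, which ends mitosis, were Cdc23 and Cdc26, and their log2 fold changes as deposited were 0.08 and 0.20 in IF and 0.34 and 0.40 in FMD, and on scaled values -0.13 and -0.05 in IF and -0.08 and -0.11 in FMD.

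Rad51b had the highest fold change of the set. It encodes a protein of homologous recombination, which repairs broken DNA from an intact copy. Rad51b read 0.12, 0.04 and 0.04 TPM in FED, 1.48, 0.41 and 1.35 TPM in IF, and 4.23, 2.97 and 7.43 TPM in FMD. The 3 groups did not overlap, and the highest value was in FMD replicate 4, not replicate 1. Rad51b reached the limit of 1 TPM only through FMD, since the FED and IF libraries averaged 0.573 TPM, and a gene admitted in this way had to be higher in FMD. Its tests against FMD are therefore not independent of the choice of genes. Ccnd2 was the other gene near the limit, with means of 0.872 TPM without FMD and 0.938 TPM without FED.

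The log2 fold change of Rad51b against FED was 0.92 (SE 0.27, limma adjusted p = 0.033) in IF and 2.39 (SE 0.27, adjusted p = 0.00015) in FMD, and FMD exceeded IF by 1.47 (SE 0.27, adjusted p = 0.019). Since 1 TPM was added before the logarithm, these values understate the change of a gene near 0. On scaled values they were 0.90 (SE 0.29, adjusted p = 0.071), 2.15 (SE 0.29, adjusted p = 0.0011) and 1.25 (SE 0.29, adjusted p = 0.049). No library left out ended the call in FMD against FED, which ranged from 2.10 to 2.64. Each of these fits kept the genes chosen on the mean of all 9 libraries. The call therefore stayed tied to the choice of genes through FMD. The call in IF was lost without any FED library or without IF replicate 1 or 3 (0.77 to 1.18, adjusted p up to 0.129), and that of FMD against IF without any IF library (adjusted p up to 0.0818) and, on scaled values, also without any FED library or FMD replicate 1 (0.99 to 1.39, adjusted p up to 0.159).

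**Figure D5:**
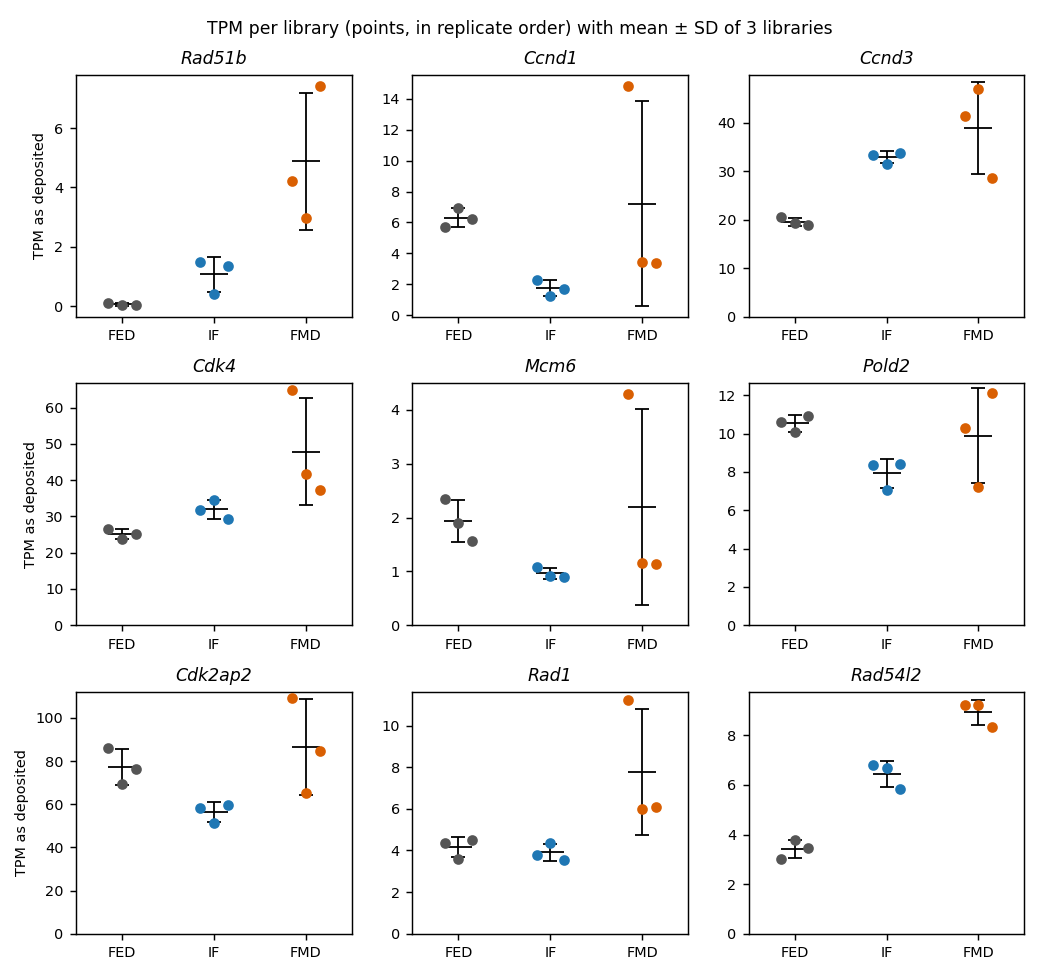
Points are the TPM as deposited of 9 genes in each library, in replicate order within FED (grey), IF (blue) and FMD (orange), with the mean and SD of 3 libraries as black bars. Rad51b and Rad54l2 rise from FED over IF to FMD without overlap, while Ccnd1 and Mcm6 are low in IF and in 2 of the 3 FMD libraries, with FMD replicate 1 at 14.85 and 4.30 TPM.

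Of the 7 genes of strand break repair and its checkpoint, 3 passed in FMD as deposited (42.9%, beside 37.1% of all genes), namely Rad51b, Rad1 and Rad17, and Rad51b alone on scaled values. Since Rad51b reached the 1 TPM limit only through FMD, its call is not independent of the choice of genes. Rad1, which with Rad9a and Hus1 forms the clamp that marks damaged DNA, read 4.37, 3.6 and 4.52 TPM in FED, 3.78, 4.37 and 3.56 TPM in IF, and 11.24, 5.97 and 6.09 TPM in FMD. FMD lay above both other groups, which overlapped each other. Rad1 had a log2 fold change of 0.72 (SE 0.20, limma adjusted p = 0.011) against FED and 0.79 (SE 0.20, adjusted p = 0.043) against IF. The first was 0.45 without FMD replicate 1 and no longer passed, and the second was lost without any FED or IF library or without FMD replicate 1 (0.52 to 0.86, adjusted p up to 0.155).

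Rad17, which loads that clamp, read 4.24, 5.09 and 5.22 TPM in FED, 6.28, 7.68 and 6.43 TPM in IF, and 12.04, 7.56 and 8.15 TPM in FMD. Both diets lay above FED, and the log2 fold change was 0.41 (SE 0.17, limma adjusted p = 0.092) in IF and 0.79 (SE 0.17, adjusted p = 0.003) in FMD. On scaled values Rad1 was at 0.25 and Rad17 at 0.31 in FMD, and neither passed. Rad9a was at 0.09 in FMD as deposited and at -0.27 on scaled values.

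The other break repair genes stayed near or below the table's median. Rad52, which anneals single strands, was at 0.02 in IF and 0.50 (SE 0.18, limma adjusted p = 0.035) in FMD. Xrcc5, the larger Ku subunit of end joining, was at 0.02 and 0.47 (SE 0.18, adjusted p = 0.041). On scaled values Rad52 was at -0.18 and 0.09 and Xrcc5 at -0.23 and -0.04. Xrcc1, the scaffold of single-strand break repair, was at -0.02 and 0.10 as deposited and at -0.26 (SE 0.09, adjusted p = 0.074) and -0.36 (SE 0.09, adjusted p = 0.015) on scaled values. None of the 3 exceeded the fold limit.

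Nucleotide excision repair cuts out bulky lesions. Rad23b, which helps the damage sensor of this pathway, changed by 0.28 on the log2 scale in IF and by 0.55 (SE 0.13, limma adjusted p = 0.0046) in FMD, short of the fold limit, and by 0.00 and 0.01 on scaled values.

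Ercc3, a helicase of TFIIH, Ercc4, part of the 5′ nuclease, and Ercc6, which couples repair to transcription, ranged from 0.10 to 0.36 in IF and from 0.22 to 0.46 in FMD on the log2 scale. Their scaled values in IF and FMD were -0.02 and -0.14 for Ercc3, 0.19 and -0.12 for Ercc4, and -0.08 and 0.10 for Ercc6. Msh3, which recognises looped-out bases in mismatch repair, read 2.57, 3.57 and 2.56 TPM in FED, 4.85, 4.81 and 4.45 TPM in IF, and 4.38, 3.03 and 5.70 TPM in FMD. Msh3 lay above FED in IF, with a log2 fold change of 0.56 (SE 0.18, limma adjusted p = 0.047), short of the fold limit, and 0.34 on scaled values.

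Among cyclins and kinases of transcription, Ccnl1, a cyclin of splicing and RNA polymerase II, passed the test in FMD. Ccnl1 read 10.21, 13.49 and 12.95 TPM in FED, 13.04, 18.29 and 17 TPM in IF, and 25.14, 23.62 and 21.71 TPM in FMD. FMD lay above both other groups, and the log2 fold change was 0.90 (SE 0.15, limma adjusted p = 0.001) as deposited and 0.37 (SE 0.15, adjusted p = 0.096) on scaled values. Cdk7, the kinase of TFIIH, was at 0.50, Ccnk at 0.43, Ccnl2 at 0.40, Cdk19 at 0.33 and Ccnc at 0.18 in FMD, around or below the median of 0.48 for all genes. On scaled values these were 0.09, -0.07, -0.14, -0.04 and -0.31.

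Ccni passed in both diets. It read 62.86, 62.15 and 58.34 TPM in FED, 110.97, 113.44 and 106.71 TPM in IF, and 106.04, 106.22 and 88.57 TPM in FMD. As deposited, it was the only gene of the set whose IF values all exceeded its FMD values. On scaled values this held for 4 genes, Ccni among them, beside 13.6% of all genes. The log2 fold change of Ccni was 0.84 (SE 0.11, limma adjusted p = 0.00073) in IF and 0.70 (SE 0.11, adjusted p = 0.00073) in FMD, and on scaled values 0.57 (SE 0.10, adjusted p = 0.0064) and 0.15 (SE 0.10, adjusted p = 0.3). FMD against IF differed by -0.14 (SE 0.11, adjusted p = 0.35) as deposited and by -0.41 (SE 0.10, adjusted p = 0.053) on scaled values.

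Ccng2, an unconventional cyclin linked to cell cycle arrest, read 11.40, 9.61 and 8.55 TPM in FED, 14.33, 11.36 and 10.96 TPM in IF, and 26.24, 24.29 and 12.34 TPM in FMD. FMD lay above FED, with replicate 4 close to it, and the log2 fold change was 0.96 (SE 0.24, limma adjusted p = 0.0067), and 0.44 (SE 0.20, adjusted p = 0.15) on scaled values. Ccng1, a p53 target, read 24.36 TPM in FMD replicate 1 against 9.23 to 12.07 TPM in the other 8 libraries, and did not pass (0.56, SE 0.24, adjusted p = 0.057; scaled 0.05).

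Cdk2ap2, a partner of Cdk2, was lower in IF on scaled values. It read 85.88, 69.47 and 76.21 TPM in FED, 58.17, 51.16 and 59.68 TPM in IF, and 109.31, 65.00 and 84.89 TPM in FMD, so that IF lay below both other groups. For Cdk2ap2 in IF the log2 fold change was -0.45 (SE 0.17, limma adjusted p = 0.086) as deposited and -0.72 (SE 0.14, adjusted p = 0.01) on scaled values, where it passed, but not without IF replicate 2 (-0.65, adjusted p = 0.054). In FMD it was 0.13 as deposited and -0.41 (SE 0.14, adjusted p = 0.068) on scaled values. Cdk17 ranged from 5.80 to 6.42 TPM in FED, from 8.66 to 9.37 TPM in IF and from 8.18 to 12.74 TPM in FMD, and passed in FMD (0.68, SE 0.15, adjusted p = 0.0032), but not without FMD replicate 1 (0.55) or on scaled values (0.19).

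Of the 6 genes grouped apart for other known functions, 3 passed in FMD, where 37.1% of all genes did, and 1 on scaled values, where 11.1% did. Rad54l2, a SNF2-family ATPase that acts with the androgen receptor, read 3.03, 3.76 and 3.47 TPM in FED, 6.80, 6.68 and 5.84 TPM in IF, and 9.21, 9.24 and 8.34 TPM in FMD. The 3 groups were apart, and the log2 fold change was 0.75 (SE 0.12, limma adjusted p = 0.0018) in IF and 1.17 (SE 0.12, adjusted p = 6.4e-05) in FMD. On scaled values Rad54l2 was at 0.53 (SE 0.10, adjusted p = 0.01) and 0.71 (SE 0.10, adjusted p = 0.0016), and no library left out ended either call as deposited. FMD against IF gave 0.42 (SE 0.12, adjusted p = 0.052).

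Cdc34 read 72.37, 63.40 and 68.50 TPM in FED, 88.88, 87.75 and 84.27 TPM in IF, and 154.04, 100.37 and 104.41 TPM in FMD, with a log2 fold change in FMD of 0.78 (SE 0.16, limma adjusted p = 0.0024), and 0.58 without FMD replicate 1, just under the fold limit. Cdc5l, a spliceosome component, read 4.44, 6.80 and 7.49 TPM in FED, 7.61, 9.12 and 7.74 TPM in IF, and 13.78, 10.75 and 10 TPM in FMD, and was at 0.80 (SE 0.18, adjusted p = 0.0039). The 3 groups of each gene did not overlap, and on scaled values Cdc34 was at 0.23 and Cdc5l at 0.31 in FMD. The cochaperones Cdc37 and Cdc37l1 and the mRNA export factor Mcm3ap were at 0.42 to 0.48 in FMD, and at -0.07 to -0.04 on scaled values.

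Listed genes of the same pathways whose symbols the rule did not take were counted from lists drawn up for each process, each with its median log2 fold change, beside 0.24 in IF and 0.48 in FMD for all genes. The counts of every list stand beside 10.3% higher and 1.59% lower among all genes in IF and 35.5% and 1.59% in FMD. Of 14 tested genes of the fork and of origin firing, 0 passed in IF and 5 were higher in FMD, led by Top1 (0.98), which relaxes DNA ahead of the fork, and Rnaseh1 (0.87), which removes RNA from hybrids. The median was 0.21 in IF and 0.55 in FMD, and both limma counts were 0 on scaled values. Pcna and Mki67, the usual marks of proliferation, were not analysed here. Of 9 genes of deoxynucleotide supply, Tk2, the mitochondrial thymidine kinase, was higher in IF (0.61) and Dck, deoxycytidine kinase, lower (-0.59), with a median of 0.14 in IF and 0.11 in FMD. On scaled values Dck passed as lower in both diets (-0.80 in IF, -0.94 in FMD), and Samhd1, a deoxynucleotide hydrolase, in IF (-0.62).

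Of 31 genes of the checkpoint and of double-strand break repair, 12 were higher in FMD (35.5% of all genes were), none of which passed on scaled values, among them Nbn (0.85), a sensor of breaks, and Usp1 (0.80), which acts in crosslink repair, and 0 were higher in IF, with a median of 0.44 and 0.14. Paxx, a Ku-bound factor of end joining, was the only one lower. It read 31.18, 19.46 and 21.80 TPM in FED, 8.73, 10.64 and 8.59 TPM in IF, and 8.66, 7.13 and 10.57 TPM in FMD. Both diets lay below FED, and the log2 fold change of Paxx was -1.26 (SE 0.19, limma adjusted p = 0.0014) in IF and -1.35 (SE 0.19, adjusted p = 0.0004) in FMD, and -1.53 and -1.86 on scaled values. Mad2l2 (-0.70 in FMD) was the other gene of that list to pass on scaled values.

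Of 18 genes of base excision, mismatch and nucleotide excision repair, Xpa, which verifies lesions, was higher in IF (0.78), and 7 were higher in FMD (35.5% of all genes were), with Xpa (0.84), Tdg (0.77), Xpc (0.77) and Cul4b (0.74) highest and a median of 0.20 in IF and 0.47 in FMD. On scaled values only Polb passed, as lower in IF (-0.59). Of 12 genes of Cdk inhibitors, Rb and E2F, with a median of 0.32 in IF and 0.51 in FMD, 3 were higher in IF (Cdkn1a, Myc at 1.54 and E2f3 at 0.68) and 3 in FMD (Cdkn1a, Myc at 2.37 and Lin37 at 0.74). On scaled values Myc, a growth-promoting factor, passed in both diets (1.39 and 1.97) and Cdkn1a in FMD (3.54). Cdkn1a, the p53-induced inhibitor p21, read 2.48, 1.54 and 1.49 TPM in FED, 16.09, 15.32 and 12.36 TPM in IF, and 184.15, 49.10 and 8.68 TPM in FMD. It was above FED in every library of both diets, with log2 fold changes of 2.47 (SE 0.77, limma adjusted p = 0.041) in IF and 4.0 (SE 0.77, adjusted p = 0.002) in FMD, and FMD replicate 1 was again the highest.

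Of 16 genes of mitosis, cohesin and the anaphase-promoting complex, Wee1 was higher in IF, and 5 were higher in FMD (35.5% of all genes were), with a median of 0.21 and 0.39. Wee1, the kinase that holds back mitosis, read 0.71, 0.55 and 0.90 TPM in FED, 2.21, 2.71 and 1.36 TPM in IF, and 4.03, 3.26 and 5.92 TPM in FMD, and the 3 groups did not overlap. Its log2 fold change was 0.83 (SE 0.21, limma adjusted p = 0.017) in IF, 1.63 (SE 0.21, adjusted p = 0.00027) in FMD and 0.80 (SE 0.21, adjusted p = 0.045) for FMD against IF. On scaled values Wee1 was at 1.29 in FMD, and Cenpa (-0.95), the centromere histone, and Plk2 (-0.89), a polo-like kinase, passed as lower.

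Markers of the cells a liver sample can hold were sparse in the table. Of 15 hepatocyte markers Ass1, a urea cycle enzyme, was listed, at 2335.07 to 5153.26 TPM. Of 11 stellate cell markers 4 were listed (Dcn, Hgf, Pdgfrb and Col1a1), with a median log2 fold change of 0.29 in IF and 0.25 in FMD as deposited and 0.12 and -0.11 on scaled values. Dcn, a matrix proteoglycan, was higher in both diets as deposited (0.86 and 0.90), the other 3 did not pass, and none of the 4 passed on scaled values. Krt19 (0.76 to 4.07 TPM), a bile duct keratin, was the listed gene of 7 cholangiocyte markers. Of 8 neutrophil markers Camp was listed, at 0 in all libraries, and of endothelial, lymphocyte and red blood cell markers 0 were listed. Their part in the results above was not tested.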

How the data were processed

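TPM values of 9 mouse livers (3 FED, 3 IF, 3 FMD, grouped by their labels) are those the authors deposited. They isolated total RNA, made strand-specific libraries after oligo-dT enrichment and sequenced them on DNBSEQ. The submitters' processing notes name mm39 and DESeq2. The aligner, the annotation and the handling of reads shared by near-identical genes are not given in the sources used here. The table gives 2 decimals and no counts, so depth and counting error are unknown and precision rests on 3 mice per group.

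Genes whose TPM averaged at least 1 (4665) entered limma as log2(TPM + 1), with limma 3.58.1 (R 4.3.3; lmFit, contrasts, eBayes with a trend), all 9 libraries in 1 fit, with Benjamini-Hochberg adjustment over these genes. Calls needed an adjusted p below 0.05 together with a log2 fold change beyond 0.585 in either direction. The fit was tested on simulated data with the same spread in every group and no shift between libraries. That test does not cover the wider spread in FMD or the library factors seen here. Scaled values are TPM divided by the library's median ratio to the geometric mean library. Other pseudocounts, filters, scalings, variance models, thresholds, a replicate block and leaving out each library were tried as alternatives. Whether replicate numbers pair mice across groups is not stated in the labels. Deviations of same-numbered libraries correlated at 0.0035 to 0.177 and those of other pairs at -0.202 to 0.211, which cannot settle it.

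The genes, their roles, the pathway and marker lists and the tests were chosen with earlier results of these data known. Each gene is counted by role, and 2 of the 51 are not reported by name here. Those called without overlap between groups, and those called on scaled values, are given per library, and up to 4 called genes per pathway list are named, with Cdkn1a. Other values given per library (Mcm6, Orc3, Cdk2, Prim2, Ccnd2, Msh3, Paxx, Myc and Wee1) were chosen after they were seen. Promoters came from RefSeq on GRCm38.p6, another build than the notes name, so only the sequences carry coordinates. Tables and figures were made in Python 3.11.15 with pandas 2.3.3, numpy 2.4.6 and matplotlib 3.10.9.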

Additional observations from a re-analysis of the deposited data

How the results depend on the processing

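Counts of genes of the set that passed are given for IF, FMD and FMD against IF, each with the share of all genes tested that passed under the same setting. As deposited they were 5, 13 and 2 (11.9%, 37.1% and 5.14%), on scaled values 3, 3 and 1 (7.14%, 11.1% and 2.23%), and with quantile normalization 3, 3 and 0 (6.99%, 11% and 2.1%). No gene's call changed direction in the alternatives run. At an adjusted p under 0.01 there were 2, 12 and 0 (7.8%, 32.4% and 0.407%), and with no limit on the fold change 8, 32 and 3 (23.8%, 67.2% and 7.61%). For FMD against IF, no filter on low values gave 1 (2.95%), a mean of 5 TPM or more 1 (6.78%), and a fit of the 2 groups alone 0 (0.514%), with 17 genes at an unadjusted p under 0.05. For IF against FED, a fit without the FMD libraries gave 5 (13.2%). It put 28 genes at an unadjusted limma p under 0.05, against 16 in the fit of all 9 libraries. The share of all genes at an unadjusted p under 0.05 was not counted. Other pseudocounts gave 6 in IF (13.9% and 15.5% of all genes) and 13 to 17 in FMD (41.3% and 45.4%). Leaving out each library gave 3 to 5 in IF (8.9% to 13% of all genes). In FMD it gave 11 to 19, with 11 without FMD replicate 1 (25%) and 19 without FMD replicate 4 (46.6%). For FMD against IF it gave 0 to 10, with 0 without any of the IF libraries (0.386% to 0.536%) and 10 without FMD replicate 4 (17.6%). On scaled values the counts were 1 to 5 (4.61% to 8.34%), 2 to 5 (8.72% to 13.9%) and 0 to 4 (0.343% to 7.4%).

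The replicate number as a block gave 5, 19 and 12 (12.7%, 46.2% and 16.5%), and on scaled values 6, 6 and 3 (8%, 13.4% and 6.77%), so that the share of all genes moved with the counts. FMD replicate 4 then has a level of its own and adds nothing to the comparison, so this fit resembles leaving it out. Whether the numbers pair the mice cannot be told from the correlations. Same-numbered pairs ran from 0.0035 to 0.177, not every one above 0.1, and FED replicate 2 correlated best with FMD replicate 4 (0.165). The limit on the fold change, not the adjusted p, kept 19 genes of the set from passing in FMD. Among all genes, 67.2% passed there without that limit and 37.1% with it. Depth is unknown, so counting error in genes near 1 TPM cannot be given.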

Other observations

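Spread between replicates was compared as the SD of log2(TPM + 1) within a group. Its median over the 51 genes was 0.0945 in FED, 0.117 in IF and 0.263 in FMD as deposited, beside 0.102, 0.108 and 0.25 over all genes. Scaling brought the FMD median to 0.162, beside 0.185. The highest SD was that of Cdc5l in FED (0.341), of Rad51b in IF (0.45) and of Ccnd1 in FMD (1.07). The summed TPM of the set was 676 to 709 in FED, 793 to 841 in IF and 909 to 1240 in FMD, and 807 to 870 in all 9 libraries on scaled values.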
